A study of Mus musculus with 4 samples.

Results

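The 10 genes described here encode the proteins that bind the mRNA cap at the start of translation and the proteins that control this step. They were chosen by name, as the rows of the deposited count table with the symbols Eif4e, Eif4e2, Eif4e3, Eif4ebp1, Eif4ebp2, Eif4g1, Eif4g2, Eif4g3, Mknk1 and Mknk2. All 10 were found among the 28193 genes of the table, and all 10 are among the 22338 genes that had enough counts in every library to be tested.

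The libraries come from fosTRAP-seq, which reads the mRNAs on HA-tagged ribosomes of hippocampal neurons that had switched on c-Fos during an earlier time window. Per the study's methods, male C57BL/6J mice aged 3 to 5 months received a pair of viral vectors in CA1, AAV8-c-Fos-ERT2-Cre-ERT2-PEST and AAV9-EF1a-DIO-HA-mRpl22-IRES-eYFP, so the ribosome tag (HA-mRpl22) is made where the c-Fos promoter drove the tamoxifen-dependent Cre while 4-hydroxytamoxifen was present. Every mouse of both groups was given the vectors and the drug, and was kept awake for 5 h on day 0. The SD group lost sleep for another 5 h on day 7 and the NSD group was left undisturbed, CA1 was collected at ZT 5, and 5 mice were pooled for each of the 2 libraries per group. The sample labels give the genotype as cFos-Cre:Ribotag and the tissue as dorsal hippocampus, which differs from the methods. The comparison of SD with NSD therefore asks how a second episode of sleep loss is associated with ribosome-bound mRNA in cells tagged during the first, and neither group is free of earlier sleep loss. Labels call the libraries biological replicates, and batches 1 and 2 each contain a single library of either group.

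Translation of most mRNAs starts when eIF4E binds the 5′ cap and eIF4G, a large scaffold protein, binds eIF4E and brings the RNA helicase eIF4A and the small ribosomal subunit. The 4E-BPs are small repressor proteins that occupy the same surface of eIF4E as eIF4G does, and phosphorylation by the kinase mTORC1 makes them let go. The Mnk kinases dock on eIF4G and phosphorylate eIF4E. In the brain 4E-BP2 is the main 4E-BP, and cap-dependent translation is known to be needed for long-lasting synaptic plasticity and memory.

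The surface that eIF4G and the 4E-BPs share on eIF4E is contacted by a short motif, and the bases that encode it are shown because they divide the 10 genes into those that can compete for eIF4E by this motif and those that lack it. The search was for codons of tyrosine, aspartate, arginine, lysine or glutamate, phenylalanine, leucine and then leucine, methionine, phenylalanine, isoleucine or valine, a pattern written from the known sites of these proteins, in the canonical GENCODE transcript of each gene on GRCm39. It was found 1 time each in Eif4ebp1, Eif4ebp2, Eif4g1 and Eif4g3, and 0 times in Eif4g2, the 3 eIF4E genes and both Mnk genes. Of 21587 mouse coding sequences read in the same way, 5 (0.0232%) hold it, the fifth being Eif4ebp3, whereas the looser pattern of tyrosine, any 4 residues, leucine and a hydrophobic residue is in 25.5% of them. In the coding-strand sequences that follow, 5′ to 3′, capitals mark the tyrosine codon and the last 2 codons of the motif, and the other letters are the 3 codons before it and the 4 codons inside it.
Eif4ebp1: aggattatcTATgaccggaaatttCTGATG
Eif4ebp2: cgaatcattTATgaccgaaagtttCTGTTG
Eif4g1: aagaagcgtTATgacagagaattcCTGCTG
Eif4g3: aagaagcagTATgaccgggagttcCTACTG

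The Eif4ebp1 bases are at chr8:27763356-27763385 on the plus strand, in exon 2 of 3, and the Eif4ebp2 bases at chr10:61270848-61270877 on the minus strand, also in exon 2 of 3. Those of Eif4g1 are at chr16:20499962-20499991 in exon 11 of 31 and those of Eif4g3 at chr4:137883952-137883981 in exon 13 of 33, both on the plus strand. The sites of the pair of 4E-BP genes have 23 of 30 bases in common and those of the pair of eIF4G genes 24 of 30, while a 4E-BP site and an eIF4G site share 17 to 19. All are coding bases. The canonical Eif4ebp2 transcript has 6022 bases, of which 120 codons are coding and 5544 bases are 3′ untranslated, so most of its length is untranslated.

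The 4 libraries held 153511705 to 195910235 rounded estimated counts, and 26043 to 27448 genes were counted in each. Levels are given in CPM, counts relative to the TMM-scaled library total, and a fold change is SD over NSD with its 95% interval from edgeR's quasi-likelihood fit. A gene was called when its Benjamini-Hochberg adjusted p over all tested genes was under 0.05 and its fold change was over 1.2 in either direction. With this rule 172 genes (0.77% of those tested) were higher and 520 (2.33%) were lower in SD. Among the 15551 protein-coding genes tested, the class of all 10 genes, 0.952% were higher and 0.54% lower. The balance of higher and lower calls moved with the processing, and the study's DESeq2 test at these thresholds gave more genes higher than lower. With the batch as a block in the fit, 668 genes (2.99%) were higher and 1891 (8.47%) lower. This block leaves almost no residual degrees of freedom in 4 libraries, so its p values depend mostly on spread borrowed from other genes. In material from many cells, fewer cells of a type and less RNA per cell cannot be told apart, and here the RNA on tagged ribosomes depends on both and on how many of a gene's mRNAs carry ribosomes.

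Of the 10 genes, Eif4ebp2 alone was called, and it was higher in SD. The other 9 were not called in either direction, with or without the batch block. For 7 of the genes (Eif4e, Eif4e2, Eif4e3, Eif4ebp2, Eif4g1, Eif4g2 and Mknk2) the 2 SD values were the highest, for 2 (Eif4ebp1 and Mknk1) they were the lowest, while Eif4g3 overlapped. The 7 become 5 when Eif4e and Eif4e3 are counted together with a near-identical or overlapping gene model, as described with these genes. Among all protein-coding genes tested, the SD values were the highest in 26.5% and the lowest in 20.0%. The median log2 fold change of the 10 genes was 0.14, that of all protein-coding genes tested 0.02 and that of all genes tested -0.02.

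**Figure D1:**
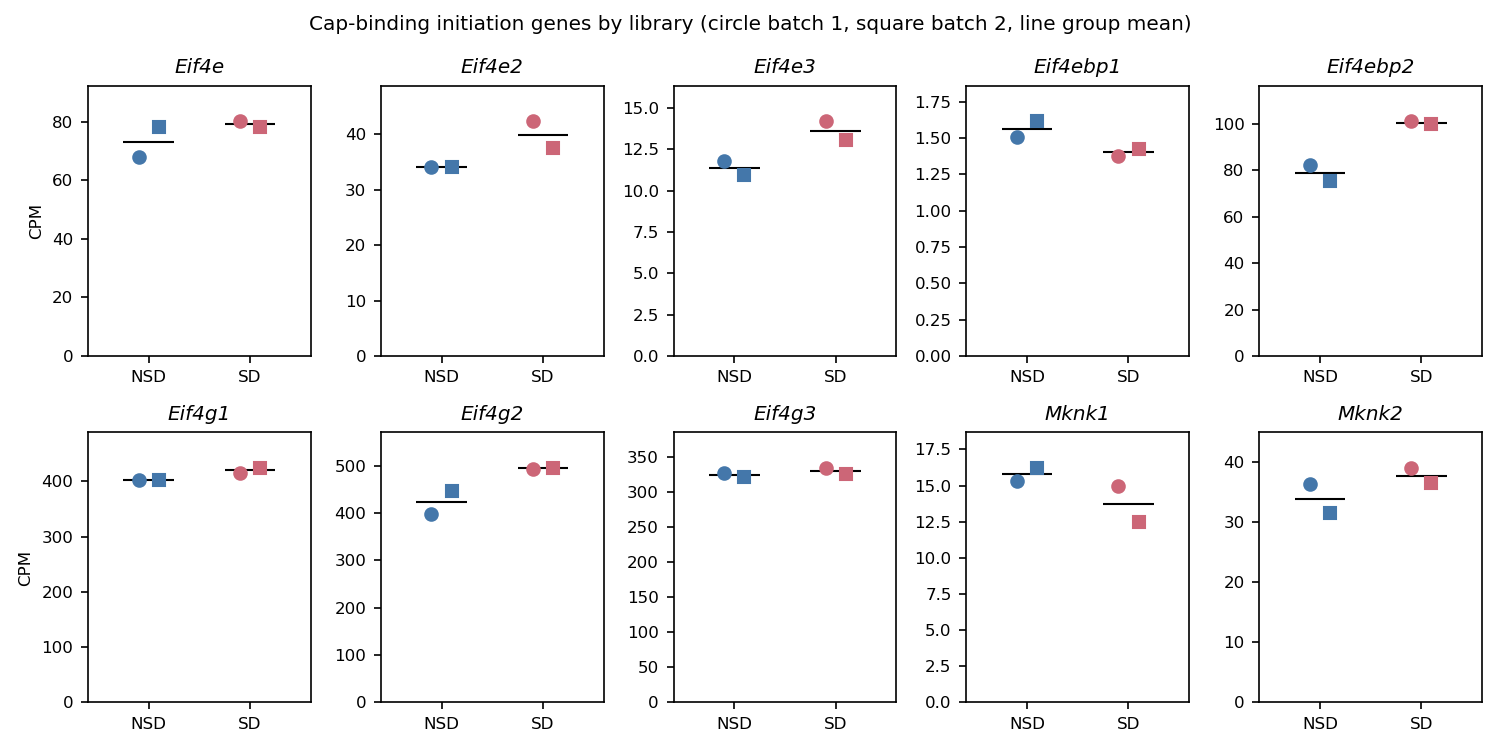
CPM (vertical axes, each starting at 0) of the 10 genes in the 2 NSD libraries (blue) and the 2 SD libraries (red), with circles for batch 1, squares for batch 2 and a line at each group mean. For Eif4ebp2 the SD libraries sit at 101 and 99.8 CPM and the NSD libraries at 82.5 and 75.4 CPM.

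Among the repressors, Eif4ebp2, which encodes 4E-BP2 (ENSMUSG00000020091, chr10:61264270-61288440 in the deposited table), had 82.5 and 75.4 CPM in NSD libraries 1 and 2 and 101 and 99.8 CPM in SD libraries 1 and 2. The SD libraries lay close together, and the gap between the groups was larger than the spread within either. The means were 78.9 ± 5.03 CPM (s.d., n = 2) in NSD and 100.5 ± 1.00 CPM (s.d., n = 2) in SD, a fold change of 1.27 (95% interval 1.14 to 1.42), with a log2 fold change of 0.35 ± 0.07 (SE) and an adjusted p of 0.0424 by edgeR's quasi-likelihood test. The rise was present in both batches, at 0.30 in batch 1 and 0.41 in batch 2 on the log2 scale. With the batch block the log2 fold change was 0.35 and edgeR's adjusted p 0.00113, and DESeq2 gave 0.37 with an adjusted p of 0.000395. The call lay near its threshold: without NSD library 2 the log2 fold change was 0.29 and edgeR's adjusted p 0.0654, and it also missed the threshold under upper quartile scaling, with another count filter or none and with protein-coding genes alone, where the adjusted p ran from 0.0554 to 0.0746. Its log2 fold change stood at percentile 95 of those of all protein-coding genes tested, which places it among the larger rises but far from the extreme.

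Eif4ebp1, the 4E-BP best known from tissues outside the brain (ENSMUSG00000031490), was the lowest of the 10 genes. It had 1.51 and 1.62 CPM in NSD, and in SD 1.38 and 1.43 CPM. Both SD values were below both NSD values, on estimated counts of only 249 to 270 per library. The log2 fold change was -0.16 with a 95% interval of -0.71 to 0.40 and an adjusted p of 0.81 by edgeR's quasi-likelihood test, so a change of the size seen for Eif4ebp2 lies within its interval in both directions. Eif4ebp3, the remaining 4E-BP gene, had 0.0111 to 0.103 CPM and too few counts to be tested. It also lies on exons of a longer gene, Maskbp3, so that its few reads cannot be assigned with certainty.

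Within each library the 4E-BP transcripts were thus almost all Eif4ebp2. Divided by the length of the canonical transcript, the level of Eif4ebp2 was 18.2 and 15.5 times that of Eif4ebp1 in the NSD libraries and 24.5 and 23.3 times in the SD libraries. With the union of all annotated exons as length these ratios were 80.5, 68.6, 108.1 and 102.9, so their size depends on the length chosen. That union is from a later annotation, in which Eif4ebp1 ends at chr8:27805206, against chr8:27766702 in the deposited table. It thus holds exon bases outside the gene model that was counted, which makes these ratios larger by an amount not computed. A constant length cancels from the comparison of SD with NSD. The ratio of Eif4ebp2 to Eif4ebp1 was higher in both SD libraries, by 0.51 on the log2 scale, where the larger standard deviation within a group was 0.163. The ratios are given as descriptions without a test, and a two-sided exact permutation test of 2 libraries against 2 cannot give a p below 0.333.

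In the eIF4E family, Eif4e encodes the cap-binding protein itself (ENSMUSG00000028156, chr3:138231940-138265457). Its values were 68.1 and 78.1 CPM in NSD and 80.2 and 78.2 CPM in SD. NSD library 2 and SD library 2 were nearly equal, so that the log2 difference was 0.24 in batch 1 and 0.00 in batch 2. The log2 fold change was 0.12 (95% interval -0.07 to 0.30) with an adjusted p of 0.502 by edgeR's quasi-likelihood test. Eif4e shares 654 bases at 98.6% identity with the processed pseudogene Gm7327, which was counted at 7.55% of the Eif4e level, and with the counts of both added the log2 fold change was 0.11 and the groups overlapped (72.8 and 85 CPM in NSD, 85.5 and 84.4 CPM in SD).

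Eif4e2 encodes 4EHP, which binds the cap but not eIF4G and takes part in repression of bound mRNAs. Eif4e2 (ENSMUSG00000026254, chr1:87141636-87168210) had 34.2 and 34.1 CPM in NSD and 42.4 and 37.5 CPM in SD. The NSD libraries were nearly identical and both SD libraries were above them, with the larger difference in batch 1 (0.31 on the log2 scale, against 0.14 in batch 2). The fold change was 1.17 (95% interval 1.03 to 1.33) with edgeR's quasi-likelihood adjusted p at 0.163. Once batch was blocked this was 0.0392, while the fold change stayed under 1.2.

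Eif4e3, an atypical cap-binding family member, had 11.8 and 10.9 CPM in NSD and 14.2 and 13.0 CPM in SD (ENSMUSG00000093661, chr6:99602096-99643732). The groups did not overlap, and the log2 fold change was 0.26 (95% interval 0.03 to 0.49) with edgeR's quasi-likelihood adjusted p at 0.2, or 0.0664 once batch was blocked. This gene has 399 exon bases on the same strand in common with Gm20696, a gene model that was counted at 10.9% of the Eif4e3 level. Gm20696 had 2.20 and 1.63 CPM in NSD and 1.02 and 0.735 CPM in SD, the opposite order of groups. With the counts of both added, the values were 13.98 and 12.57 CPM in NSD and 15.21 and 13.77 CPM in SD, the groups overlapped, and the log2 fold change was 0.13 with an adjusted p of 0.586 by edgeR's quasi-likelihood test. The value for Eif4e3 thus differs with how reads are divided between these overlapping gene models.

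Among the scaffolds, Eif4g1, which encodes the main eIF4G protein, had 401.8 and 401.5 CPM in NSD and 414.8 and 424.4 CPM in SD (ENSMUSG00000045983, chr16:20487063-20511634). Both SD libraries were above the NSD libraries, by a small margin, and the log2 fold change was 0.06 (95% interval -0.12 to 0.24) with an adjusted p of 0.754 by edgeR's quasi-likelihood test. Its interval ends below a fold change of 1.2 on either side. Eif4g3, which encodes the closely related eIF4G of the brain and other tissues, had 326.6 and 321.2 CPM in NSD and 334.6 and 325.1 CPM in SD (ENSMUSG00000028760, chr4:137720333-137935819). Here SD library 2 lay between the NSD libraries, and the log2 fold change of 0.03 (95% interval -0.15 to 0.20, adjusted p 0.907 by edgeR's quasi-likelihood test) changed its sign, to -0.01, under upper quartile scaling.

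Eif4g2 encodes DAP5, an eIF4G relative without the eIF4E-binding part, in which 0 copies of the motif were found, and which takes part in initiation that does not need eIF4E. Eif4g2 had 398.6 and 447.4 CPM in NSD and 492.9 and 496.1 CPM in SD (ENSMUSG00000005610, chr7:110666957-110682237). The SD libraries were alike and above both NSD libraries, which were farther apart from each other. The fold change was 1.17 (95% interval 1.01 to 1.35), with edgeR's quasi-likelihood adjusted p at 0.219, or 0.0529 once batch was blocked. By DESeq2 the adjusted p was 0.023, and 0.00416 with the block, again at fold changes under 1.2. The ratio of Eif4g2 to Eif4g1 per kilobase was 0.794 and 0.892 in NSD and 0.952 and 0.936 in SD, a log2 difference of 0.16 where the larger standard deviation within a group was 0.119.

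**Figure D2:**
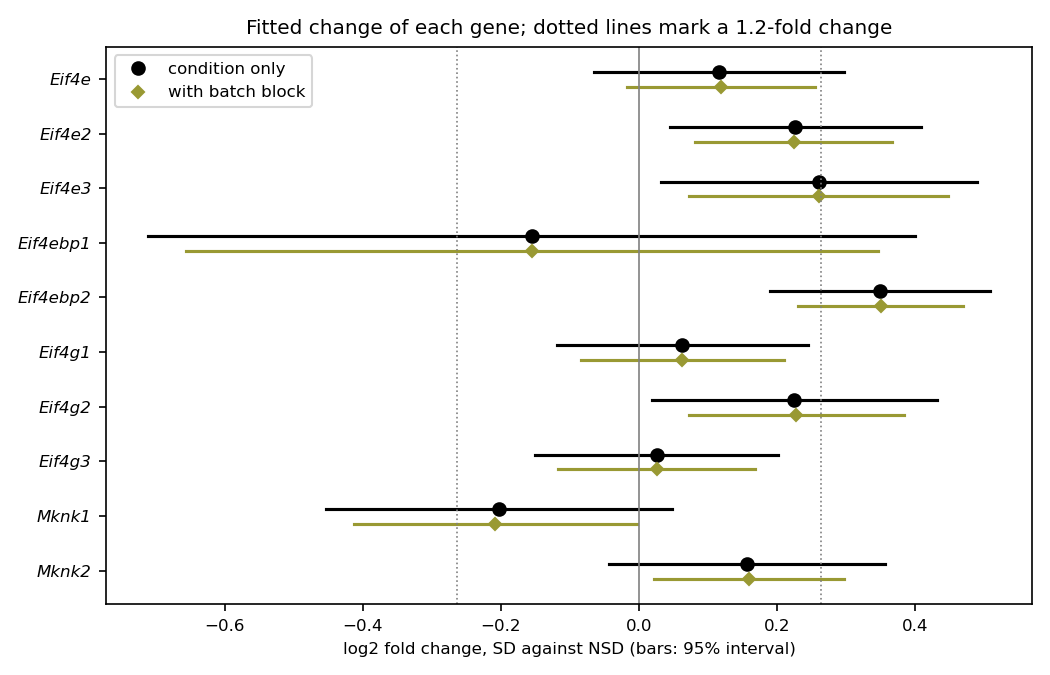
Log2 fold change of each gene, SD against NSD (horizontal axis), from edgeR with condition only (black circles) and with the batch block (olive diamonds), with bars for the 95% interval and dotted lines at a 1.2-fold change. The interval of Eif4ebp2, 0.19 to 0.51 with condition only, lies farthest from 0, and that of Eif4ebp1, -0.71 to 0.40, is the widest.

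The Mnk kinases did not share a direction. Mknk1, whose product Mnk1 responds to the ERK and p38 pathways, had 15.3 and 16.2 CPM in NSD and 14.96 and 12.46 CPM in SD (ENSMUSG00000028708, chr4:115696395-115736447). Both SD values were the lower ones, but the difference was -0.03 on the log2 scale in batch 1 and -0.38 in batch 2, so it came mostly from batch 2. The log2 fold change was -0.20 (95% interval -0.45 to 0.05) with an adjusted p of 0.374 by edgeR's quasi-likelihood test.

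Mknk2, which encodes the more constitutively active Mnk2, had 36.3 and 31.5 CPM in NSD and 39.1 and 36.5 CPM in SD (ENSMUSG00000020190, chr10:80501161-80513946). NSD library 1 and SD library 2 were almost equal. The log2 fold change was 0.16 (95% interval -0.04 to 0.36) with an adjusted p of 0.393 by edgeR's quasi-likelihood test, and leaving out NSD library 1 or 2 gave 0.29 or 0.06. The ratio of Mknk2 to Mknk1 per kilobase was 1.75 and 1.43 in NSD and 1.92 and 2.15 in SD, which is 0.37 higher in SD on the log2 scale where the larger standard deviation within a group was 0.205.

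Levels were compared between genes per kilobase of canonical transcript, and where stated with the union of all annotated exons as length. The 3 scaffold genes stood highest, at mean levels over the 4 libraries of 64.1 (Eif4g1), 57.3 (Eif4g2) and 53.3 (Eif4g3) CPM per kilobase. Eif4e2 followed at 23.6, then Eif4e at 15.2, Eif4ebp2 at 14.9, Mknk2 at 10.3, Mknk1 at 5.75 and Eif4e3 at 4.84, with Eif4ebp1 last at 0.74 CPM per kilobase. For Eif4g1 and Eif4g3, whose products bind eIF4E, these means were 4.2 and 3.5 times that of Eif4e, or 4.23 and 2.3 times with the union of all annotated exons as length. The neighbours Eif4g2 and Eif4g3, Eif4e and Eif4ebp2, and Mknk1 and Eif4e3 overlapped over the 4 libraries, and the others did not, with Eif4g1 just above the highest Eif4g2 library.

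The order depends on the length used. With the union of all annotated exons in place of the canonical transcript, Eif4e2 moved from rank 4 to rank 8 and Eif4ebp2 from rank 6 to rank 4, while the 3 scaffold genes and Eif4ebp1 kept their ranks. The ratio of the mean level of Eif4e2 to that of Eif4e went from 1.55 to 0.265 and that of Mknk2 to Mknk1 from 1.79 to 3.91. The canonical Eif4g3 transcript is annotated with 0 bases of 3′ untranslated sequence, so its level was divided by a length without that part.

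**Figure D3:**
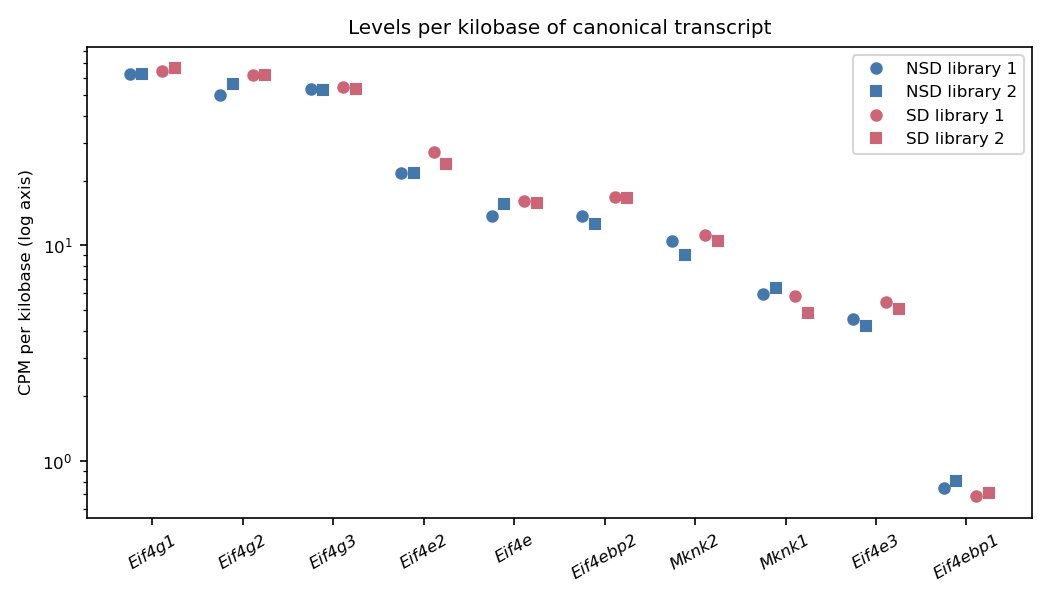
Level of each gene in CPM per kilobase of canonical transcript (vertical log axis), ordered by the mean, in the 2 NSD (blue) and 2 SD (red) libraries, with circles for batch 1 and squares for batch 2. Eif4g1, Eif4g2 and Eif4g3 lie between 49.8 and 66.2, and Eif4ebp1 lies between 0.687 and 0.807.

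Because 4E-BP and eIF4G bind eIF4E at the same place, the ratio of their transcripts within a library was also computed, which removes any scaling between libraries. Eif4ebp2 to Eif4e per kilobase was 1.01 and 0.8 in NSD and 1.05 and 1.06 in SD. The SD libraries were above the NSD libraries, but the log2 difference of 0.23 was no larger than the standard deviation of 0.232 between the NSD libraries. Eif4ebp2 to Eif4g1 was 0.218 and 0.2 in NSD and 0.26 and 0.25 in SD, a log2 difference of 0.29 where the larger standard deviation within a group was 0.0913. Eif4e2 to Eif4e was 1.596 and 1.391 in NSD and 1.68 and 1.53 in SD, and these overlapped. These are ratios of ribosome-bound mRNA, and neither protein amounts nor phosphorylation were measured in these libraries.

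**Figure D4:**
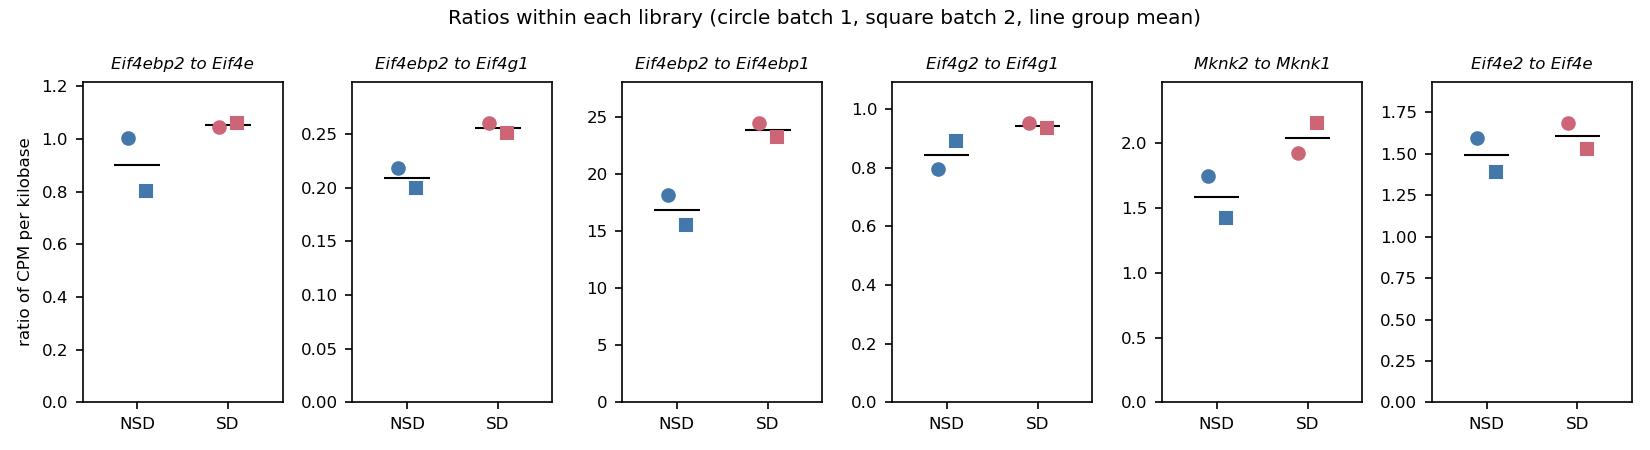
Ratios of CPM per kilobase within each library (vertical axes, each starting at 0) for 6 pairs of genes, in NSD (blue) and SD (red), with circles for batch 1, squares for batch 2 and a line at each group mean. The groups are apart for Eif4ebp2 to Eif4g1, with 0.2 and 0.218 in NSD against 0.25 and 0.26 in SD, and overlap for Eif4e2 to Eif4e.

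The genes around this step were taken as 4 lists, with 69 genes tested in all. Of the 33 tested genes for the mTORC1 kinase and its regulators, 2 were called higher and 0 lower. Of all 22338 tested genes, edgeR with condition only called 0.77% higher and 2.33% lower. Over the 33 genes of this list, log2 fold changes had a median of 0.03. The pair called higher were Castor2 and Deptor. Castor2 encodes a member of the CASTOR family of proteins, which hold mTORC1 back. Castor2 had 255.9 and 259.8 CPM in NSD and 341.9 and 355.6 CPM in SD. Its fold change was 1.35 (95% interval 1.198 to 1.527, adjusted p 0.0378 by edgeR's quasi-likelihood test). Deptor, which encodes an inhibitory subunit bound to mTOR, had 37.8 and 34.6 CPM in NSD and 45.6 and 45.9 CPM in SD, a fold change of 1.26 (95% interval 1.13 to 1.41, adjusted p 0.0482 by edgeR's quasi-likelihood test). In both genes the groups were clearly apart and the batches gave like differences, 0.42 and 0.45 on the log2 scale for Castor2 and 0.27 and 0.40 for Deptor. The Castor2 call was lost without NSD library 1 (edgeR's adjusted p 0.0601) and the Deptor call without NSD library 2 (0.0775) or SD library 2 (0.0533), at log2 fold changes of 0.45, 0.27 and 0.35. The Castor2 call was also lost with filterByExpr, and the Deptor call with filterByExpr, upper quartile scaling, no count filter and protein-coding genes alone. Over all alternatives the adjusted p by edgeR or DESeq2 ran from 7.26e-10 to 0.0628 for Castor2 and from 0.00105 to 0.103 for Deptor.

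With the batch block, Sesn3 was called higher as well and Rps6kb2 lower, which makes 3 higher and 1 lower of the 33, where 2.99% of all tested genes were higher and 8.47% lower with the block. By DESeq2 with condition only 4 of the 33 were higher and 1 was lower. Of all 22338 tested genes DESeq2 called 669 higher and 1294 lower. Sesn3 encodes a sestrin, a stress-induced protein that restrains mTORC1, and its values were 220.2 and 175.3 CPM in NSD and 260.8 and 231.2 CPM in SD. Its log2 fold change was 0.31, with edgeR's quasi-likelihood adjusted p at 0.182 and, with the block, at 0.00634. Rps6kb2, which encodes the S6 kinase S6K2 downstream of mTORC1, had 8.99 and 6.17 CPM in NSD and 5.20 and 3.82 CPM in SD, with a log2 fold change of -0.75 (edgeR's quasi-likelihood adjusted p 0.0982, and 0.00135 with the block). In the latter gene 1224 exon bases lie opposite Ptprcap and 47 opposite Coro1b, which has several times its count, and although the libraries were made with a stranded kit, whether the counting used strand is not given in the sources used here. Mtor itself had 164.3 and 177.4 CPM in NSD and 166.3 and 181.9 CPM in SD, with a log2 fold change of 0.03. Of the core subunit genes Mtor, Rptor and Mlst8, 0 were called with or without the block.

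Of all 22338 tested genes, 668 were called higher by edgeR with the batch block and 669 by DESeq2 with condition only. In the other lists edgeR called 0 genes in either direction with condition only. In each of these lists 1 gene was called higher both by edgeR with the batch block and by DESeq2 with condition only. Among 10 tested partners of eIF4E and eIF4G (median log2 fold change 0.07) this was Paip2b, which encodes an inhibitor of the poly(A)-binding protein, with 34.4 and 33.7 CPM in NSD and 41.02 CPM in both SD libraries. Its log2 fold change was 0.27 (edgeR's quasi-likelihood adjusted p 0.0683, and 0.0102 with the block). Eif4a1 and Eif4a2, the helicase genes of the complex, had log2 fold changes of -0.06 and 0.06. Among 13 cap-binding and eIF4E-binding proteins (median 0.09) it was Ncbp3, a nuclear cap-binding protein gene, with 25.04 and 25.06 CPM in NSD and 33.9 and 30.6 CPM in SD, a log2 fold change of 0.36 and an adjusted p of 0.0507 by edgeR's quasi-likelihood test (0.00367 with the block). Among 13 kinases upstream of Mnk (median 0.03) it was Map2k6, which encodes an activator of p38, with 24.5 and 26.1 CPM in NSD and 30.2 and 30.8 CPM in SD, a log2 fold change of 0.27 and an adjusted p of 0.0944 by edgeR's quasi-likelihood test (0.0173 with the block).

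**Figure D5:**
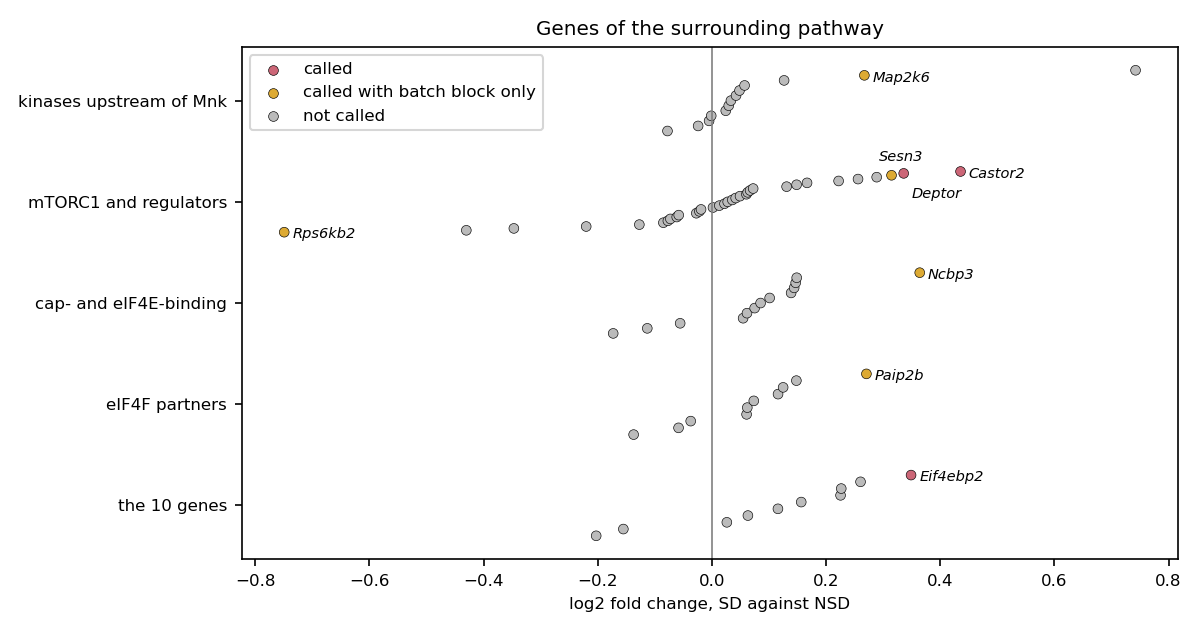
Log2 fold change, SD against NSD (horizontal axis), of the 10 genes and of the 4 surrounding lists (rows, points spread vertically by rank), with red for genes called with condition only, yellow for genes called with the batch block only and grey for the rest. The red points are Eif4ebp2 (0.35), Castor2 (0.44) and Deptor (0.34), and Rps6kb2 (-0.75) is the one coloured point left of 0.

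By their profile over the 4 libraries, centred on each gene's own mean, the 3 protein-coding genes nearest to Eif4ebp2 were Ccdc85c, Cnot6 and Tmem159. Their root mean square distances from it were 0.00781, 0.00971 and 0.0106 on the log2 scale. A gene picked in this way has a fold change like that of Eif4ebp2, so its own test adds no evidence. Cnot6, which encodes a deadenylase subunit of the CCR4-NOT complex, had 47.2 and 43.4 CPM in NSD and 57.7 and 56.4 CPM in SD, and was called higher (log2 fold change 0.33, adjusted p 0.048 by edgeR's quasi-likelihood test), a call that was lost without NSD library 2 (edgeR's adjusted p 0.0767) or SD library 1 (0.0668), and also under upper quartile scaling, no count filter, filterByExpr and protein-coding genes alone (0.0598 to 0.0935). Ccdc85c had a log2 fold change of 0.35 and an adjusted p of 0.0516, and Tmem159 0.35 and 0.368, by edgeR's quasi-likelihood test. Over 4 points many genes can have like profiles. Of the 10 genes, the closest pair by this measure were Eif4g1 and Eif4g3 (distance 0.0331), followed by Eif4e2 and Eif4e3 (0.0457), and the nearest of the 10 to Eif4ebp2 was Eif4e3 (0.0584).

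Marker genes describe which cell types' mRNAs are in the libraries. Without an input or untagged library, mRNA of tagged cells and mRNA carried over unspecifically cannot be told apart. All 8 markers of CA1 and excitatory neurons were present, with summed levels of 6350 and 6674 CPM in NSD and 6111 and 6580 CPM in SD. By edgeR with condition only 0 of them were called. With the batch block, and by DESeq2 with condition only, 4 were called lower in SD, among them Wfs1, Fibcd1 and Neurod6, and 0 higher. Of all 22338 tested genes, 1891 (8.47%) were lower with the block and 1294 by DESeq2 with condition only. Of the CA1 and excitatory markers not called, Mpped1 was above in both SD libraries and Pou3f1, Camk2a and Slc17a7 overlapped. Wfs1 has 2660 exon bases opposite Ppp2r2c, which was counted at 179.7% of its level. Endothelial markers summed to 46.1 and 66.1 CPM in NSD and 37.4 and 24.4 CPM in SD, with 7 of 8 below in both SD libraries, 0 called by edgeR with condition only, 4 called lower by DESeq2 with condition only, 6 called lower by edgeR with the block and none at 0. Markers of the dentate gyrus, CA2 and CA3 summed to 133.6 and 129.4 CPM in NSD and 125.7 and 127.8 CPM in SD, with 1 of 8 called lower with the block. Summed levels of the other lists overlapped between the groups, at 1406 to 1691 CPM for the oligodendrocyte lineage, 1039 to 1119 for interneurons, 451.9 to 501.6 for astrocytes and 55.3 to 72.8 for microglia, and with the block 1 of 6 oligodendrocyte lineage markers was called higher and 1 of 8 interneuron markers lower, beside 2.99% higher and 8.47% lower of all tested genes. The part of these shifts in the values of the 10 genes was not tested.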

How the data were processed

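fosTRAP-seq was measured in 4 libraries, 2 NSD and 2 SD, grouped by the labels' treatment. Per the study's methods, trimming by the authors was followed by STAR alignment to GRCm39 (mm39 in the labels) and quantification of Ensembl genes in Partek Flow. The authors deposited estimated counts, that is expected counts per gene that were not normalized, and 55.6% of genes have a value that is not whole. Such a model divides reads between overlapping or similar genes, which bears on Eif4e3 and Eif4e. The counts were rounded, a gene needed over 5 counts in all 4 libraries (22338 did), and edgeR 4.0.16 in R 4.3.3 was run with TMM scaling, a quasi-likelihood fit on condition and Benjamini-Hochberg adjustment, giving 0.0296 as common dispersion and 6.38 prior degrees of freedom. Differences within a batch used log2 CPM with a prior count of 2. At these library totals the spread between n = 2 pools, rather than counting, limits the precision of all but the lowest genes.

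The labels give each library a batch equal to its replicate number, so the numbers pair NSD with SD libraries. Across genes, how far a library lay from its group mean correlated at 0.178 between libraries of the same number. Alternatives were this replicate block, DESeq2 1.42.0 without and with the block, median ratio and upper quartile scaling, no count filter, filterByExpr, protein-coding genes alone, no fold change threshold, each library left out, summed counts of overlapping or near-identical genes, and union exon lengths. DESeq2 with the block, the summed counts and the union lengths were added after the data were seen. Near-identical copies (at least 95% identity over at least 150 bases) came from BLAST 2.17.0 on GENCODE transcripts of GRCm39, a later annotation than the authors used. The transcript and exon lengths came from the same annotation.

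The 10 genes and all lists were chosen with earlier results of these data known. Named genes are the 10, the list genes called with or without the block, and the 3 nearest profiles of each called gene among the 10. Mtor, Eif4a1, Eif4a2, Gm20696, Gm7327 and the named markers were added after their values were seen. No protein sequence was used, and results for some genes are left out of the text.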

Additional observations from a re-analysis of the deposited data

How the results depend on the processing

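Among the 10 genes, all alternatives for the fold changes together gave 116 values that kept their direction and their call (adjusted p and the 1.2-fold limit together), 5 that lost the call and 1 that reversed. Within the 116, the adjusted p alone passed 0.05 at fold changes under 1.2 for Eif4e2 with the replicate block (0.0392 by edgeR) and for Eif4g2 by DESeq2 (0.023, and 0.00416 with the block). Eif4ebp2 stayed higher in SD throughout (log2 fold change 0.29 to 0.44, adjusted p 4.35e-05 to 0.0746 by edgeR or DESeq2), and the 5 losses are all its own. The number of the 10 called higher was 1, and 0 under upper quartile scaling, no count filter, filterByExpr and protein-coding genes alone, with 0 to 1 when a library was left out (0 without NSD library 2). The number called lower was 0 in every alternative. Eif4g3 reversed to -0.0087 under upper quartile scaling. The replicate block changed no call among the 10 genes.

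Genes called higher numbered 172, against 668 with the replicate block, 669 by DESeq2, 724 by DESeq2 with the block, 91 under upper quartile scaling, 50 with no filter, 1 with filterByExpr and 51 with protein-coding genes alone, and 144 to 321 with a library left out. Genes called lower numbered 520, against 1891 with the block, 1294 by DESeq2, 1427 by DESeq2 with the block, 80 with no filter, 0 with filterByExpr (edgeR, 4410 genes at an unadjusted p under 0.05 in both directions) and 39 with protein-coding genes alone, and 87 (without NSD library 1) to 1953 (without SD library 1). The share of calls that were higher was 24.9%, and moved to 38.5% with no filter, 56.7% with protein-coding genes alone, 100% with filterByExpr (1 call), 62.3% without NSD library 1 and 13.0% without SD library 1. Pathway genes called higher numbered 2, against 6 with the block, 7 by DESeq2 without and with the block, 1 under upper quartile scaling, no filter and protein-coding genes alone, 0 with filterByExpr, and 1 (without NSD library 2) to 3. Those called lower numbered 0, against 1 with the block and by DESeq2 without and with it, and 0 to 1 with a library left out. The cause of these shifts was not tested. Leaving out a library leaves 1 in its group, which is assumed to vary like the other group.

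The log2 ratio of 4E-BP to eIF4E transcripts differed by 0.23, and by 0.21 with Eif4ebp1 and Eif4ebp2 summed. With condition only, dropping the 1.2-fold limit changed none of these counts of calls. For Eif4ebp1, at 249 to 270 counts, the interval is the widest. Pooled mice, the difference between labels and methods in genotype and tissue, and the absence of protein data bound what these values show.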
